A study of Homo sapiens with 8 samples.

Results

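PHOX2A, HAND2, GATA3 and TBX2 are transcription factors of the noradrenergic state of neuroblastoma, and the reads listed at m1A sites of their transcripts are described here. The genes were taken by name from the gene field of the deposited site table. They held 20 of the 9962 listed single-base positions and were 4 of the 4945 listed genes. The study silenced TRMT6 in neuroblastoma cells by transfecting small interfering RNA, kept control cells beside them, and enriched fragmented poly(A) RNA with an antibody against N1-methyladenosine (m1A). Its 8 samples form 4 groups of 2, an input and an m1A group for each condition, and the table's 4 columns of counts were taken as the m1A libraries, called control 1, control 2, siTRMT6 1 and siTRMT6 2. The sample titles name the cells SK-N-BE, while the source and cell line fields name SK-N-AS. Nothing says whether the libraries of a group came from separate cultures, so p-values here reflect spread that may be technical. The labels used here give no dose or time of the transfection.

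In noradrenergic neuroblastoma cells a small set of transcription factors binds the enhancers of its own genes and of each other, a loop called the core regulatory circuit. PHOX2A is a homeodomain factor that activates the genes of noradrenaline synthesis. HAND2 is a basic helix-loop-helix factor needed for sympathetic neurons, GATA3 is a zinc finger factor of the sympathoadrenal lineage and of T cells, and TBX2 is a T-box factor best known as a repressor. N1-methyladenosine carries a methyl group on the base-pairing edge of adenine. TRMT6 is the non-catalytic subunit of the TRMT6/TRMT61A methyltransferase, which places m1A in the T-loop of tRNA and in some other RNAs with a similar stem and loop.

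Reads at listed positions numbered 8655 in control 1, 46007 in control 2, 40771 in siTRMT6 1 and 13812 in siTRMT6 2. These totals cover listed positions and are not the depth of the libraries. TRMT6 itself had 0 listed lines, so the silencing could not be followed. Of the listed positions, 98.6% had reads in 1 library. A count of 0 can mean no reads or no call, which the sources used here do not settle, so no fold is given against a condition at 0. Of 10 noradrenergic marker genes, a list that includes these 4, 7 had a position, with 346 control and 399 siTRMT6 reads. Of 14 mesenchymal marker genes 2 had one, VIM and FOSL2, with 29 and 19 reads, and FN1, PRRX1 and CD44 were among the 12 without.

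PHOX2A had 3 positions and was the member with reads in each of the 4 libraries, which 2.95% of listed genes had. Its 5' UTR carried a control and a siTRMT6 base with nearly the same number of reads. On the minus strand of chromosome 11 (hg38), base 72244098, the 79th of transcript ENST00000298231, had 49 reads in siTRMT6 1. Base 72244073, the 104th, had 50 reads in control 2. These counts ranked 12 among the 3607 listed bases of siTRMT6 1 and 18 among the 4269 of control 2. The bases lay 25 nt apart, and the other libraries had no listed reads at either.

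The third PHOX2A base, 72239875, lay in coding sequence at transcript position 901. It had 57 reads in control 1, none in control 2, none in siTRMT6 1 and 24 in siTRMT6 2. The control 1 count was the 3rd highest of the 819 listed bases of that library. One library of each condition was therefore read at this base and the other was not, and the groups overlapped at 0. Scaled to 1000000 listed reads of each library (CPM), control 1 had 6586 CPM and siTRMT6 2 had 1738 CPM. The authors' deposited table gave a log2 fold change of -1.43 (adjusted p = 0.000193), from pooled reads. In edgeR, with the libraries as replicates, the log2 difference was -0.80 ± 3.29 (SE), with an adjusted p of 0.904.

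HAND2 had 1 position, base 173529365 on the minus strand of chromosome 4, in the 5' UTR at position 865 of ENST00000359562. Control 2 had 56 reads there, siTRMT6 2 had 29, and control 1 and siTRMT6 1 had none. The 56 reads ranked 12 among the bases of control 2 and the 29 ranked 19 among the 1414 of siTRMT6 2. The direction of this base depended on the scaling. The authors' deposited table, which pools reads, gave a log2 fold change of -1.13 (adjusted p = 0.00179). On the CPM scale, control 2 had 1217 and siTRMT6 2 had 2100, and the log2 of the means over both libraries of a condition was 0.79. In edgeR the log2 difference was -0.38 ± 3.28 (SE, adjusted p = 0.922), and 0.72 ± 3.52 (adjusted p = 0.891) with library sizes set to the listed reads.

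An antisense gene overlaps HAND2. RefSeq (GRCh38.p14) places HAND2-AS1 at 173528600 to 173591255 of chromosome 4, a span that includes the HAND2 base, although the table listed that base for HAND2 alone. Within the RefSeq span of HAND2, from 173526091 to 173530229, the table also listed 2 plus-strand bases for HAND2-AS1. Control 1 had 53 reads at 173527479 and siTRMT6 2 had 29 at 173527490. Whether the counting used strand is not given in the sources used here, so reads of HAND2 and of its antisense RNA could not be told apart. These bases, 11 nt apart, lie outside the RefSeq span of HAND2-AS1, so the table's label and that annotation differ there. Control 1 had none of its listed reads at the HAND2 base.

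GATA3 had 10 positions, more than each of the other members, against a median of 2 per listed gene. In all, 42 genes had at least as many. It was listed for transcripts ENST00000379328 and ENST00000346208 on the plus strand of chromosome 10, and transcript positions below are those of the first. In its 5' UTR, base 8054788 (position 96) had 12 reads in siTRMT6 2, base 8054807 (position 115) had 23 in control 2, and base 8054809 (position 117) had 25 in siTRMT6 1. The last of these bases lay 2 nt from the control base. In ENST00000346208 the same pair fell at positions 2 and 4, next to the annotated start.

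Further along GATA3, base 8055543 of the 5' UTR (position 456) had 12 reads in siTRMT6 2. In coding sequence, base 8055774 (position 687) had 25 reads in siTRMT6 1 and base 8055789 (position 702) had 23 in control 2, 15 nt away. Downstream of that pair, GATA3 bases were listed in siTRMT6 libraries alone. These were the coding bases 8058751 (position 1256) with 12 reads and 8074000 (position 1880) with 7 in siTRMT6 2, and the coding base 8069521 (position 1541) and the 3' UTR base 8074078 (position 1958) with 11 each in siTRMT6 1. Control 1 had no GATA3 reads. The 2 control bases each had a siTRMT6 1 base within 15 nt, and 5 of the 8 siTRMT6 bases had no control base within 200 nt. Bases without a neighbour of the other condition were common in the whole series. With positions of a gene joined within 200 nt, 17.3% of all 8488 regions held both conditions.

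TBX2 had 6 positions on the plus strand of chromosome 17, in ENST00000240328, read in control 2 and siTRMT6 1 and in neither of the other libraries. In coding sequence, base 61405510 (position 1641) had 30 reads in control 2 and base 61405516 (position 1647) had 29 in siTRMT6 1, 6 nt apart. In the 3' UTR, base 61408940 (position 2854) had 22 reads in control 2 and base 61408952 (position 2866) had 22 in siTRMT6 1, 12 nt apart. The remaining bases had no listed neighbour within 200 nt, with 27 reads in siTRMT6 1 at coding base 61400498 (position 603) and 23 in control 2 at 3' UTR base 61408532 (position 2446). TBX2-AS1, an antisense gene next to TBX2, had 12 reads in siTRMT6 2 at 61399347, outside the TBX2 gene.

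**Figure D1:**
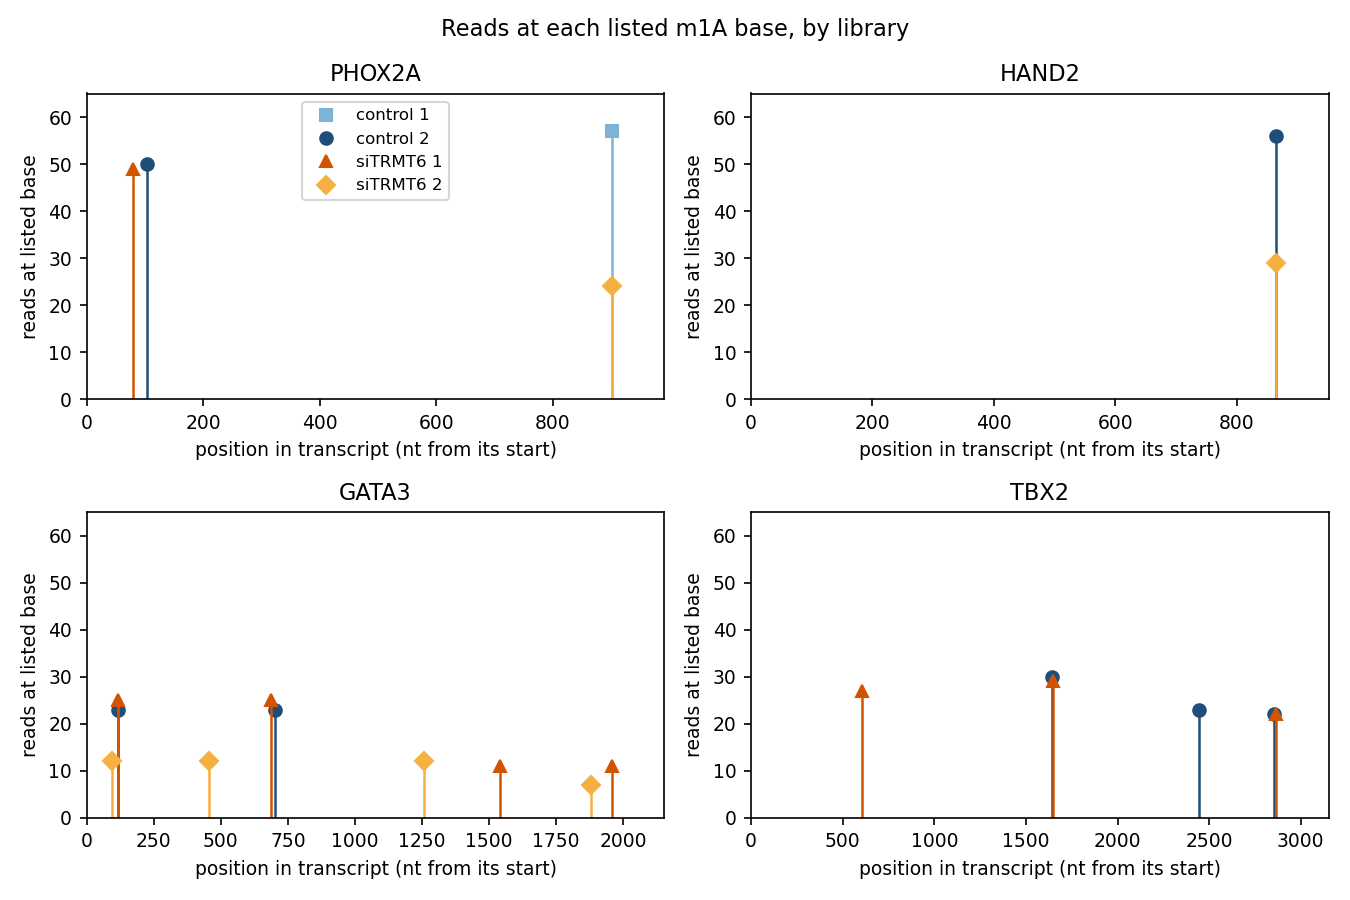
Reads (vertical axis) at each listed base against its position in the transcript in nt (horizontal axis), 1 panel per gene, with colour and marker for the library and GATA3 drawn on ENST00000379328. Control 2 and siTRMT6 1 bases stand side by side at similar heights in PHOX2A (50 and 49 reads) and TBX2 (30 and 29 reads), while the coding base of PHOX2A and the base of HAND2 carry 2 libraries each.

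The authors' deposited table called 8 of the 20 positions lower and 12 higher in siTRMT6, each at an adjusted p below 0.05. Over all listed positions, 9961 of 9962 (100%) passed that threshold, 50.4% lower and 49.6% higher, and the largest p deposited was 0.0478. The count of calls is therefore that of a table already selected on its test. Bases a few nt apart were called in opposite directions. For the PHOX2A 5' UTR pair, the deposited log2 values were -6.83 and 6.43. For the TBX2 coding pair they were -6.09 and 5.67, and for the pair in its 3' UTR -5.64 and 5.27. Both GATA3 pairs had -5.71 and 5.46. These values replace a condition without reads by 0.5 reads, and no base of these pairs had reads in both conditions.

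Reads were then summed over positions of a gene within 200 nt of the next. The 20 positions formed 13 regions, and 7 of them (53.8%) held both conditions, against 17.3% of all 8488 regions. Among the 933 regions with at least 20 reads in 1 condition, 33.5% held both, and for the members it was 7 of 9 (77.8%). The members were chosen with these data in view, so these shares are a description.

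Once summed, the paired bases gave log2 values near 0. On the scale of the authors' fold change, which divides siTRMT6 over control reads by 1.14, the PHOX2A 5' UTR region had a log2 of -0.21 (50 control and 49 siTRMT6 reads). The TBX2 regions had -0.23 (30 and 29 reads) in coding sequence and -0.18 (22 and 22 reads) in the 3' UTR. The GATA3 coding pair had -0.065, from 23 and 25 reads, and the GATA3 5' UTR region 0.50, from 23 and 37 reads. With the condition totals of listed reads as the scale, the values are 0.19 higher, so that of the GATA3 coding pair was 0.12 and that of the TBX2 3' UTR pair 0.0021, both of the other sign. The value of the GATA3 5' UTR region was -1.12 without siTRMT6 1 and -0.065 without siTRMT6 2. These values keep the scale of both libraries, so leaving out siTRMT6 reads can only lower them. In edgeR, which scales each library, the log2 difference of that region was 0.78 without siTRMT6 1 and 1.18 without siTRMT6 2.

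The siTRMT6 share of a region's reads was given an interval, which shows the counting error of these sums if reads were independent. Equal levels correspond to 53.2% on the authors' scale and to 49.96% by listed reads. The share was 49.5% in the PHOX2A 5' UTR region (95% Clopper-Pearson interval 39.3 to 59.7). In TBX2 it was 49.2% (35.9 to 62.5) in coding sequence and 50.0% (34.6 to 65.4) in the 3' UTR. In GATA3 it was 61.7% (48.2 to 73.9) in the 5' UTR region and 52.1% (37.2 to 66.7) in the coding pair. These intervals hold both equal levels. At the PHOX2A coding base it was 29.6% (19.99 to 40.8), and at the HAND2 base 34.1% (24.2 to 45.2), below both. Both equal levels pool the libraries of a condition, which differ in listed reads. By mean CPM the PHOX2A coding base was lower in siTRMT6 (log2 of the means -1.92), but the HAND2 base was higher (0.79). The intervals cover counting error only, not the spread between libraries, and reads without molecular identifiers are not independent molecules.

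**Figure D2:**
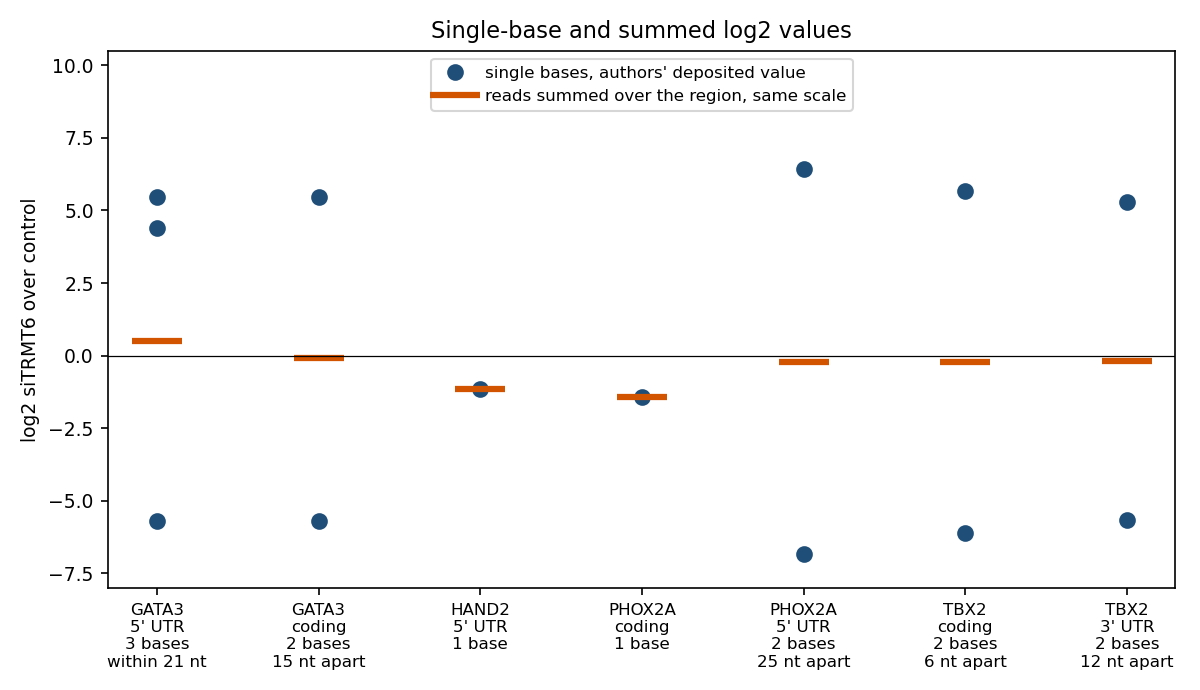
Log2 of siTRMT6 over control (vertical axis) for the 7 member regions with reads in both conditions. Points are the authors' deposited values of single bases and bars are the reads summed over the region on the same scale. In the 2-base regions the upper points lie between 5.27 and 6.43 and the lower ones between -6.83 and -5.64, while the bars of the 2-base regions lie between -0.23 and -0.065.

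Over the 1470 regions of all genes with both conditions, the median log2 was -0.34 on the authors' scale, with quartiles -0.64 and -0.11. The 7 member regions ran from -1.43 at the PHOX2A coding base to 0.50, with a median of -0.21. A region enters this set because both conditions had a listed base, and a set chosen so leans to similar counts.

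**Figure D3:**
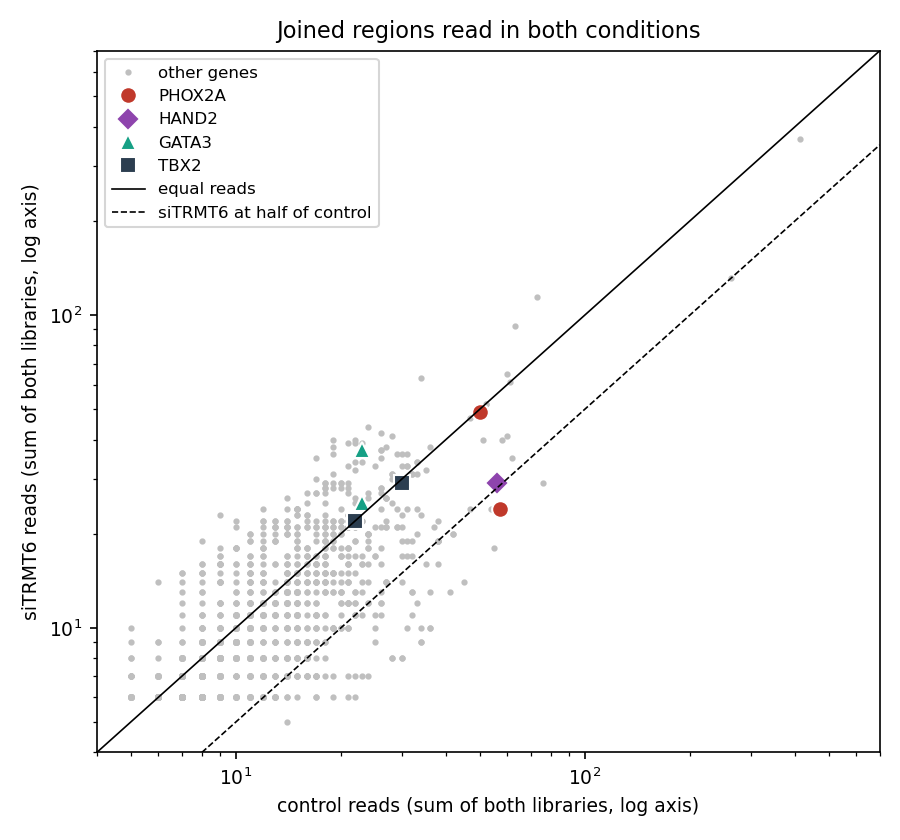
Control reads (horizontal) against siTRMT6 reads (vertical), each summed over both libraries and on log axes, for the joined regions with reads in both conditions. Grey points are regions of other genes, the solid line marks equal reads and the dashed line siTRMT6 reads 2-fold lower. The 2-base member regions lie close to the solid line. The HAND2 base (56 and 29 reads) lies at the dashed line and the PHOX2A coding base (57 and 24) below it.

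The close counts of neighbours were also measured over the whole table. Of the 5 member pairs of a control 2 base and an adjacent siTRMT6 1 base, reads differed by 0 to 2, or 0 to 4.17% of the pair's sum. For the 83 such pairs of all genes in which both bases had at least 20 reads, the median was 2.44% (quartiles 1.59 and 4.65), and their distance had a median of 16 nt, against 12 nt in the members. The GATA3 5' UTR base of siTRMT6 2 differed more from its control 2 neighbour, with 12 against 23 reads at a distance of 19 nt. These counts were closer than counting noise gives. The squared difference divided by the sum, which averages about 1 for 2 independent counts of equal level, averaged 0.039 over the 5 member pairs and 0.167 over the 967 pairs of control 2 and siTRMT6 1 in all genes. The cause was not tested. The sums near 0 and the counting intervals above rest on these pairs, so neither can be read as from independent reads.

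Bases read in both conditions were rare. Among all positions there were 14 (0.141%), and 2 of them, the PHOX2A coding base and the HAND2 base, were among the 20 member positions. These 2 were the ones with at least 20 siTRMT6 reads. Each of the 14 was lower in siTRMT6 in the authors' deposited table, with log2 values of -1.05 or below, from pooled reads. By the mean CPM of the libraries of a condition, 8 of the 14 were lower, the PHOX2A base among them, and 6 were higher, the HAND2 base among them. DBH, the enzyme that makes noradrenaline and a target of PHOX2A, was also among them, with 17 reads (369.5 CPM) in control 2 and 7 (507 CPM) in siTRMT6 2.

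In the transcript, 7 of the 20 member positions lay in 5' UTRs (35.0%), 9 in coding sequence (45.0%) and 4 in 3' UTRs. Of all listed positions, 10.6% were in a 5' UTR alone, 59.1% in coding sequence alone and 19.6% in a 3' UTR alone. GATA3 held 4 of the 7 positions in 5' UTRs, PHOX2A 2 and HAND2 1, and TBX2 had none. Positions of 1 gene are not independent, and 3 of the GATA3 positions in its 5' UTR lie within 21 nt.

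Tested with edgeR as replicates, 2 of the 20 member positions passed the filter on low counts, the PHOX2A coding base and the HAND2 base, and 0 were called. Of the 34 positions tested in all, edgeR called 64.7%, 14 with library sizes set to the listed reads, and DESeq2 called 0 (14 at an unadjusted p below 0.05). No member position was called with these settings, nor in edgeR without the filter, where all 20 were tested. Over joined regions, 7 of the 13 member regions were tested and 0 were called, against 0% of all 525, and the adjusted edgeR p of each was above 0.99. DESeq2 called 0 of the 7. In both tools 0 of these positions and regions had an unadjusted p below 0.05. The SE of the log2 difference was between 2.56 and 4.03 over these regions, so a several-fold change in either direction was not detectable.

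Summed per gene, PHOX2A had 57, 50, 49 and 24 reads in control 1, control 2, siTRMT6 1 and siTRMT6 2. In CPM the groups overlapped, since control 2, at 1087, was below siTRMT6 1, at 1202, and siTRMT6 2, at 1738. Control 1, at 6586, stood above the other 3 libraries. The edgeR log2 difference was -0.56 ± 1.03 (SE). Without control 1 it was 0.018 ± 0.67 (SE), of the other sign, so the direction in PHOX2A rests on that library.

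GATA3 had 0, 46, 72 and 43 reads in the same order. In CPM these were 0, 999.8, 1766 and 3113, so the siTRMT6 libraries lay above the controls on that scale, with a mean of 2440 ± 953 (SD, n = 2) against 499.9 ± 707 (SD, n = 2). Of the genes tested by edgeR, 25.8% had siTRMT6 libraries above both controls in this way. In raw reads the groups overlapped, since siTRMT6 2 was below control 2. The edgeR log2 difference was 1.83 ± 2.20 (SE). Without control 1 it was 0.83 ± 0.65 (SE), with an unadjusted edgeR p of 0.305. Without control 2 the GATA3 reads were 0 in the control, which was then control 1 alone. That library had 8655 listed reads, against 46007 in control 2, and no fold is given against its 0.

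HAND2 had 0, 56, 0 and 29 reads and TBX2 had 0, 75, 78 and 0. In both genes the groups overlapped at 0, and the edgeR log2 differences were 0.058 ± 3.13 and 0.18 ± 3.04 (SE). All 4 genes passed the filter and 0 were called, against 0% of 975 genes, with an adjusted edgeR p above 0.99 for each and 0 at an unadjusted p below 0.05. DESeq2 called 0 of the 4.

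**Figure D4:**
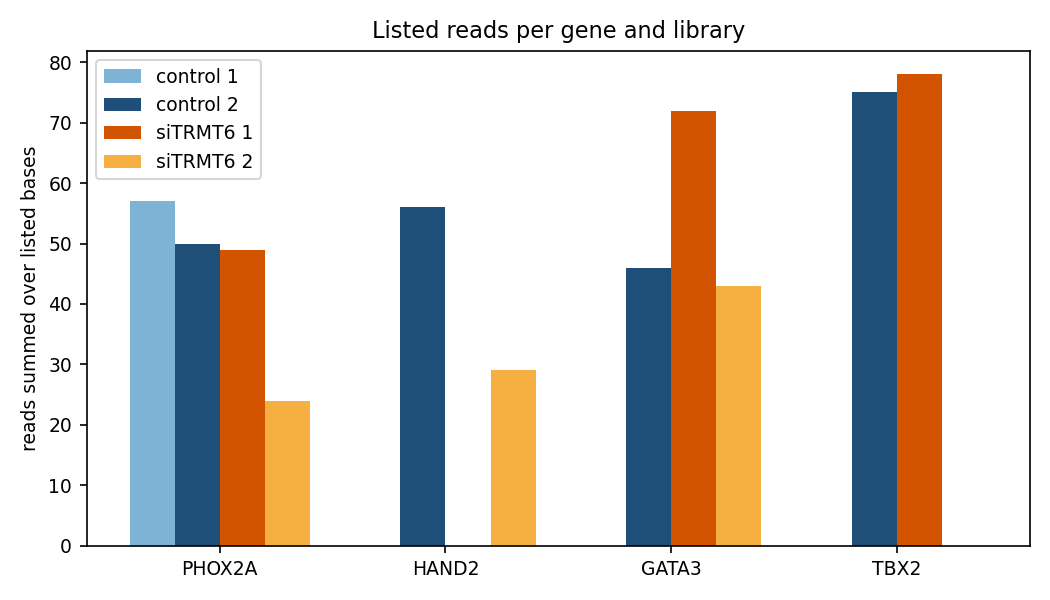
Reads summed over the listed bases of each gene (vertical axis, from 0), 1 bar per library. PHOX2A has a bar in all 4 libraries (57, 50, 49 and 24 reads), GATA3 in 3, HAND2 in control 2 and siTRMT6 2, and TBX2 in control 2 and siTRMT6 1 (75 and 78 reads).

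The genes whose reads fell over the libraries most like those of each member were found among 1822 other genes with at least 20 reads, as the percentage of reads that would have to move between libraries. Over 4 libraries many genes share a pattern. PHOX2A was nearest to GAS8 (2.71%), then to ANKHD1 and its readthrough gene ANKHD1-EIF4EBP3 (4.91%), which had identical reads. HAND2 was nearest to SNHG7 (0.365%), then to CEP164 and JUNB (both 0.498%). CEP164 and JUNB were among 3 genes tied at that distance, and ties were ordered by reads, then by symbol. GATA3 was nearest to C11orf24 (1.30%), FZR1 (1.43%) and PTMA (1.59%). TBX2 was nearest to APEX1 (0.131%), PRKRIP1 and TRMT61A (both 0.448%).

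Of 28 other transcription factors of the noradrenergic circuit and state, 17 had a position, with 17 positions lower and 30 higher in the authors' deposited table. Over all listed positions, 50.4% were called lower and 49.6% higher there, and 98.6% had reads in 1 library. MYCN had 50, 53, 48 and 59 reads in control 1, control 2, siTRMT6 1 and siTRMT6 2. SOX4, a SOX factor of developing neurons, had 0, 36, 37 and 21. TFAP2B, an AP-2 factor of sympathetic cells, had 36, 14, 13 and 12. SIX3, a homeodomain factor, had 0, 15, 33 and 17, and the zinc finger factor KLF13 had 9, 29, 25 and 0. TLX2, a homeodomain factor of neural crest derivatives, had 0, 0, 28 and 11, and TWIST1, a basic helix-loop-helix factor, had 16, 0, 21 and 0. The paralogue of GATA3, GATA2, had 0, 0, 32 and 17, and that of HAND2, HAND1, had 0, 0, 21 and 11. TBX3, the closest relative of TBX2, had 0, 11, 11 and 6. The paralogues of HAND2 and GATA3 were thus listed in siTRMT6 libraries alone, while TBX3 had control 2 and siTRMT6 1 at the same count, as TBX2 nearly had.

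Of 16 targets and products of the circuit, 11 had a position. The authors' deposited table had 20 of these positions lower and 17 higher, against 50.4% and 49.6% of all listed positions. CHGA, chromogranin A, had 0, 62, 61 and 81 reads in the same order of libraries, and CHGB, chromogranin B, had 0, 0, 15 and 0. DLK1, a Notch-family ligand, had 49, 77, 30 and 12. DBH had 16, 46, 8 and 21, and TH, which makes the precursor of dopamine, had 0, 0, 18 and 8. RET, a receptor tyrosine kinase of sympathetic cells, had 8, 62, 6 and 0. SLC6A2, the noradrenaline transporter, had 0, 47, 17 and 0, and SLC18A1, a vesicular monoamine transporter, had 8, 22, 6 and 0. In edgeR none of 975 genes was called, these lists included (128 genes at an unadjusted p below 0.05).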

How the data were processed

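Values came from 1 deposited table of m1A sites (25539 lines, 29 for the members), reduced to 1 row per position. Per the submitters' processing notes, FastQC 0.11.3, STAR and hg38 were used. Which caller, counting rule and test made the table is not given in the sources used here. The deposited columns used, per the file headers, are 4 of counts, the authors' log2 fold change, and their p-value with its adjusted form. Columns of counts name condition and number, and were taken as the m1A libraries because the table lists m1A sites. Input values are not used here. Sites count from 0 and are given counting from 1. The authors' log2 values were recovered as pooled reads, 0 replaced by 0.5, divided by 1.14.

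The 4 libraries were tested over all positions, regions (positions of 1 gene joined within 200 nt) and genes with edgeR 4.0.16 in R 4.3.3: filterByExpr (minimum count 10), TMM, quasi-likelihood test, Benjamini-Hochberg adjustment at 0.05, two-sided. The SE is the log2 difference over the square root of F. DESeq2 1.42.0 was an alternative, as were listed reads as library sizes, no filter, a replicate block, each library left out, and joining within 100 or 500 nt. Steps were tested on simulated data. For the edgeR fit these were gene counts with equal library sizes, unlike the libraries here, so that test does not cover such uneven reads. Gene spans came from RefSeq (GRCh38.p14), which matched the 4 members. Named genes were all member positions and the 8 with most reads of each list, HAND1 and TBX3 being added, after their values were seen, as relatives of members; the 3 nearest genes per member were taken by total variation distance. Members, lists and tests were chosen with earlier results of these data known. Sequence around the sites is not used here.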

Additional observations from a re-analysis of the deposited data

How the results depend on the processing

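The count of 0 member calls in edgeR held for positions, joined regions and genes under each alternative run: DESeq2, listed reads as library sizes, no filter, joining within 100 or 500 nt, and leaving out each library in turn. The adjusted p of the members had its minimum, 0.132, for the GATA3 5' UTR region without control 2. A replicate block also gave 0 member calls, and the count over all positions went from 22 to 0 with it. The numbers are not stated to pair the samples. The correlation of same-numbered deviations was 0.29 over positions, -0.26 over regions and -0.11 over genes, and a crossed pairing, chosen after seeing the data, gave 0 member calls as well. Member bases with reads in both conditions numbered 2, and 6 when reads of the other condition within 10 nt counted. With 1 library left out they numbered 0 to 2, with 0 without siTRMT6 2, 1 without control 1 and 1 without control 2. Joining within 500 nt moved the log2 of the TBX2 3' UTR region from -0.18 to -1.22, because control 2 reads at 61408532 then joined it. It also moved the GATA3 coding pair from -0.065 to 0.50, as the base 8055543, with 12 siTRMT6 2 reads, then joined it.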

Other observations

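At each of the 14 bases of the table with reads in both conditions, the siTRMT6 reads came from siTRMT6 2, and siTRMT6 1 had reads at 0 of them, although it held more listed bases than siTRMT6 2 (3607 against 1414). Control 1 alone supplied the control reads at 1 of the 14, the PHOX2A coding base. Control 2 alone supplied them at 6, the HAND2 base among them, and both controls at 7.

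Among the members, equal counts recurred within a library at bases far apart in GATA3 alone. There, siTRMT6 2 had 12 reads at each of 3 bases, siTRMT6 1 had 25 at 2 bases and 11 at 2 others, and control 2 had 23 at 2 bases. The median count of a read position was 8 or 9 in each library. How often such small counts tie within other genes was not tested.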
